A study of Mus musculus with 34 samples.

Results

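The methyl mark on N6 of adenosine (m6A) is placed on messenger RNA by a nuclear writer complex and can be taken off by demethylases called erasers. The genes described here are 9 members of that machinery, chosen by name from the 13108 rows of the count table. They comprise 7 writer genes (Mettl3, Mettl14, Wtap, Zc3h13, Rbm15, Rbm15b and Cbll1) and 2 eraser genes (Fto and Alkbh5), and all 9 had a row. Their messenger RNA was measured in hematopoietic stem cells (HSCs) from mice with and without Ythdf2, a reader protein that binds m6A and promotes decay of the marked transcripts.

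Every mouse was C57BL/6 and carried floxed Ythdf2 alleles that encode a GFP fusion. Ythdf2 CKO mice also carried Vav-iCre, which is active throughout the blood lineages and from before birth, and Ythdf2 CTL mice carried the floxed alleles alone (the labels call these groups KO and WT). There were 4 Ythdf2 CTL and 4 Ythdf2 CKO young mice of 8 to 12 wk, and 4 Ythdf2 CTL and 5 Ythdf2 CKO aged mice of 1 yr. Each library came from 100 HSCs sorted as LSK CD48-CD150+, with 2 libraries per mouse, summed here. Levels are counts scaled to library size (CPM), with factors from the TMM method over all 17 mice. Young and aged libraries carry different prefixes in their descriptions, so age and sample series cannot be told apart.

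Totals per mouse ranged from 2218618 to 10125624 counts, and 1 library of aged Ythdf2 CTL mouse 99 with 187034 counts was left out. The HSC markers (10 genes) were all detected and summed to between 1297 and 2599 CPM per mouse. Of the T-cell markers, Cd3e, Cd3d, Cd3g and Cd8a had no row, and of the B-cell markers in the table Ms4a1 was at 0 in every group while Cd79b stood at 32.9 to 153 CPM. Lyz2, a myeloid gene, stood at 382 to 884 CPM and Pf4, a megakaryocyte gene, at 178 to 2753 CPM per mouse. Ythdf2 itself stood at 92.9 to 124 CPM in young Ythdf2 CTL and at 50.6 to 60.0 CPM in young Ythdf2 CKO mice, with no overlap. In the paper's floxed allele, loxP sites flank exon 2. Counts over the whole gene cannot tell transcripts with and without exon 2 apart. In the aged groups 2 mice went against their labels. The mouse labelled Ythdf2 CKO 121 had 186 CPM against 72.6 to 87.7 CPM in the other 4, and the mouse labelled Ythdf2 CTL 124 had 71.3 CPM against 142 to 178 CPM in the other 3. The log2 fold change of Ythdf2 was -0.95 (SE 0.17, adjusted p = 0.0406) in young mice and lay between -1.01 and -0.87 over 17 alternatives, with adjusted p between 7.5e-06 and 0.211. The call was lost in 9 of these, namely with the Y-linked covariate, with the mouse number as a block and without any 1 of the young mice other than Ythdf2 CKO 3. The smallest adjusted p came from the likelihood ratio test over libraries, which treats the 2 libraries of a mouse as independent. In aged mice the log2 fold change was -0.48 (SE 0.33, adjusted p = 0.661), or -1.06 (adjusted p = 0.0212) without these 2 mice, with adjusted p between 0.0212 and 0.861 over the 19 alternatives. Aged results are therefore given with these mice and, where the call changes, without them. Reads of Y-linked genes were found in 3 young Ythdf2 CTL mice, 1 young Ythdf2 CKO mouse and 1 mouse of each aged group beyond a single read, so the sexes were not balanced.

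In the writer complex Mettl3 is the catalytic subunit, and Mettl14 is its partner that holds the RNA substrate. Wtap binds this pair and keeps it in nuclear speckles, while Zc3h13 helps to hold the complex in the nucleus. Rbm15 and its paralog Rbm15b are RNA-binding adaptors that recruit the complex to transcripts, and Cbll1, also known as Hakai, is a RING-finger protein found in the same complex. Fto and Alkbh5 belong to the AlkB family of iron-dependent dioxygenases. In blood stem cells the machinery is known for its part in differentiation and in leukemia.

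In the mouse genome build mm10 (GENCODE M21 gene models) Mettl3 lies at chr14:52294841-52305128, Mettl14 at chr3:123368297-123386108, Wtap at chr17:12966796-12994169 and Zc3h13 at chr14:75284373-75344426. Rbm15 lies at chr3:107325421-107333673, Rbm15b at chr9:106880918-106887428, Cbll1 at chr12:31484829-31499616, Fto at chr8:91313525-91668439 and Alkbh5 at chr11:60536381-60558512. All 9 are protein-coding genes. The counts cover the whole gene, and the authors' annotation and use of strand are not given in the sources used here.

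Promoter sequences are shown for Wtap, Alkbh5 and Rbm15, because these members varied together between mice, as described further on. Each run is the 250 bases before a RefSeq transcript start in GRCm38, on the gene's own strand, with capitals marking CCAAT, searched on both strands. They lie at chr17:12992544-12992793 (minus strand), chr11:60537433-60537682 (plus strand) and chr3:107333290-107333539 (minus strand). Each window lies inside the GENCODE gene span given above, so the RefSeq start used is not the outer end of the GENCODE gene.
Wtap: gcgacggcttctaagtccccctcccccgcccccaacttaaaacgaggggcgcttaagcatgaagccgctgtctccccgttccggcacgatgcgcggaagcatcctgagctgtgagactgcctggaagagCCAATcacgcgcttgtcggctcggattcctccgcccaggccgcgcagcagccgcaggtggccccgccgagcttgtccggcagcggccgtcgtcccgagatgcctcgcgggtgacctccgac
Alkbh5: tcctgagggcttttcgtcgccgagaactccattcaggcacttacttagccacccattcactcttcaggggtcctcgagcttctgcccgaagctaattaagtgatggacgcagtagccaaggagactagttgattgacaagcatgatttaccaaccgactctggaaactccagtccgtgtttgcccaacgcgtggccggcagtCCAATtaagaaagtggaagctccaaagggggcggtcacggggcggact
Rbm15: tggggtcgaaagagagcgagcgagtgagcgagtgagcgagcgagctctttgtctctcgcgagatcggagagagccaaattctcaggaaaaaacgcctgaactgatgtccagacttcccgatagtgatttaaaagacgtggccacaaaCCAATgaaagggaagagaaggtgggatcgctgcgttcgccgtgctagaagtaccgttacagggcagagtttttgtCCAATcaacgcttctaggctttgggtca

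CCAAT or its reverse complement ATTGG was present once in the windows of Wtap and Alkbh5 and 2 times in that of Rbm15. Wtap has 3 listed starts, and the window of the most downstream start (chr17:12992260-12992509) did not hold it. The letters were absent from the windows of Mettl3, Zc3h13, Rbm15b, Cbll1 and Fto, and Mettl14 was not in the promoter table. Among all 27025 promoter windows of this length 34.5% held CCAAT on either strand. The GC-box core GGGCGG, on either strand and found in 32.9% of all windows, was present in those of Wtap, Zc3h13, Rbm15b, Cbll1 and Alkbh5, and TATAAA (13.0% of all windows) in none of the 8 matched members. CACGTG, present in 6.05% of all windows, occurred 2 times in that of Rbm15b and in no other member. These matches are a description of the sequence and not of binding.

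The writer and eraser transcripts differed widely in abundance (the plot of levels by mouse). Per kilobase of exon, the order in young Ythdf2 CTL HSCs was led by Wtap with 22.5 ± 1.10 CPM per kb (SD, n = 4), followed by Cbll1 with 16.1 ± 1.36 and Alkbh5 with 11.3 ± 0.685 CPM per kb. Wtap and Cbll1 did not overlap each other over the 4 mice, and neither did Cbll1 and Alkbh5. The catalytic Mettl3 (9.59 ± 2.42 CPM per kb), its partner Mettl14 (8.42 ± 2.34) and Zc3h13 (7.78 ± 1.51) overlapped with each other. Rbm15 (5.27 ± 0.971) and Fto (5.02 ± 0.526) also overlapped, and Rbm15b was the lowest, with 1.15 ± 0.457 CPM per kb and no overlap with Fto. Length here is the union of all annotated exons, 13031 bases for Fto and 5076 bases for Mettl3. Their longest coding transcripts have 4707 and 2025 bases, so places in the order depend on this choice. The ratios per kilobase given below rest on the same lengths. Wtap stayed first and Rbm15b last in all 4 groups. Fto moved from 8th place in both young groups to 7th in aged Ythdf2 CTL and 5th in aged Ythdf2 CKO HSCs, where its range of 9.29 to 12.5 CPM per kb lay above that of Zc3h13, next in order.

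**Figure D1:**
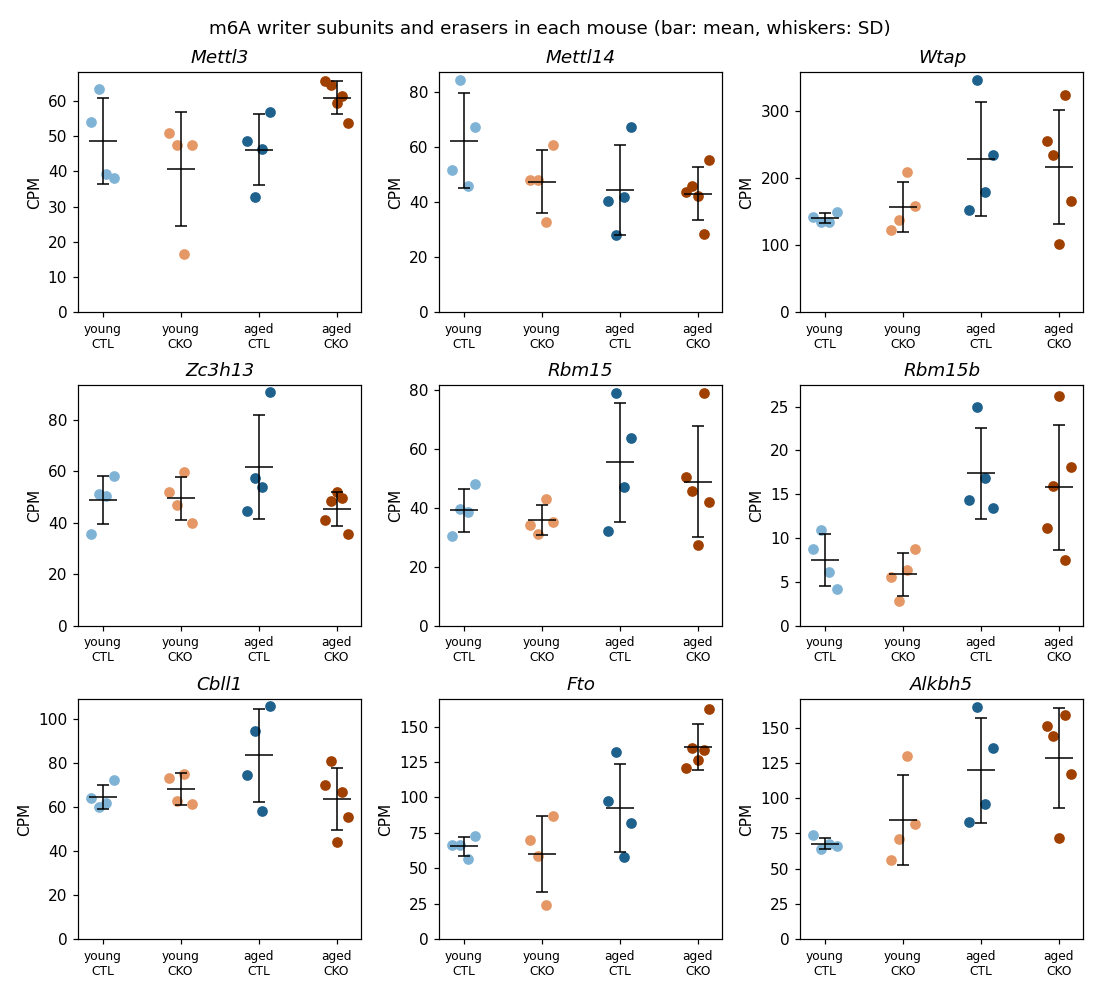
Level of each of the 9 members in CPM (vertical axis, from 0) for every mouse of the 4 groups (points), with the group mean and SD (bar and whiskers). Fto in aged Ythdf2 CKO mice lies between 121 and 163 CPM, above every young Ythdf2 CKO mouse, and 1 young Ythdf2 CKO mouse is low for Mettl3 and Fto.

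Loss of Ythdf2 in young mice was compared first, and no member passed the test. By edgeR's quasi-likelihood test 0 of 9 members had an adjusted p below 0.05, where 0.174% of the 11526 genes tested were called, and 0 members had an unadjusted p below 0.05, as had 7.06% of all genes. DESeq2 called 0 members as well, and 0.668% of all genes. The median log2 fold change of the members was -0.12, against -0.00 over all genes tested. None of the 9 had groups that did not overlap, as 4.72% of all genes did. The megakaryocyte and platelet markers, 5 of 5 detected, summed to 503 to 859 CPM in young Ythdf2 CTL and to 973 to 3078 CPM in young Ythdf2 CKO mice, with Pf4 as the largest, and their part was not tested. Single genes of this list differed, as Gp9 stood at 76.5 to 97.6 CPM in young Ythdf2 CTL and at 43.9 to 75.8 CPM in Ythdf2 CKO mice, and Itga2b overlapped. As these are bulk samples, fewer cells of a kind and less RNA per cell cannot be told apart.

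For the catalytic pair the values spread within genotype. Mettl3 stood at 38.1, 39.2, 54.1 and 63.5 CPM in young Ythdf2 CTL mice and at 16.4, 47.4, 47.6 and 51.0 CPM in young Ythdf2 CKO mice. The single low value belonged to young Ythdf2 CKO mouse 3. Its log2 fold change was -0.26 (SE 0.31, adjusted p = 0.935), and without that mouse it was 0.00. Mettl14 stood at 46.0, 51.9, 67.4 and 84.7 CPM in Ythdf2 CTL and at 32.8, 48.0, 48.1 and 61.0 CPM in Ythdf2 CKO mice. Here too the groups overlapped, and the log2 fold change was -0.39 (SE 0.24, adjusted p = 0.837), which became -0.25 without young Ythdf2 CKO mouse 3 and -0.20 without young Ythdf2 CTL mouse 2.

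Wtap ranged from 134.8 to 149 CPM in young Ythdf2 CTL mice and from 123 to 209.7 CPM in Ythdf2 CKO mice, where mouse 3 was again at the end of the range, now the upper one. Zc3h13 (35.6 to 58.2 and 40.0 to 59.8 CPM), Rbm15 (30.3 to 48.0 and 31.0 to 42.9 CPM) and Cbll1 (60.3 to 72.5 and 61.4 to 75.2 CPM) covered nearly equal ranges in Ythdf2 CTL and Ythdf2 CKO mice. Their log2 fold changes were 0.03 (SE 0.22), -0.12 (SE 0.22) and 0.08 (SE 0.18). Rbm15b, with only 15 to 60 counts per young mouse, had a log2 fold change of -0.35 (SE 0.52, adjusted p = 0.955), which was -0.62 without Ythdf2 CKO mouse 4 and -0.11 without Ythdf2 CKO mouse 2 or Ythdf2 CTL mouse 2.

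Of the erasers, Alkbh5 stood at 64.1, 66.2, 67.2 and 73.6 CPM in young Ythdf2 CTL mice and at 56.2, 70.7, 81.8 and 129.9 CPM in Ythdf2 CKO mice. Its log2 fold change was 0.33 (SE 0.23, adjusted p = 0.882), and 0.04 without mouse 3. Fto stood at 56.2, 66.4, 66.5 and 72.8 CPM in Ythdf2 CTL and at 23.8, 58.6, 69.9 and 87.3 CPM in Ythdf2 CKO mice, with a log2 fold change of -0.12 (SE 0.29). Both extremes, the high Alkbh5 and the low Fto, came from mouse 3.

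In this young Ythdf2 CKO mouse 3 the balance between members stood apart from the other 16 mice. The ratio of Alkbh5 to Fto per kilobase was 11.9, whereas it lay between 1.23 and 3.60 in all others. The ratio of Wtap to Mettl3 per kilobase was 10.4, above the next value of 8.63 in aged Ythdf2 CTL mouse 99. Mettl3 and Fto were low in both of its libraries, at 17.0 and 15.4 CPM for Mettl3 and at 23.9 and 24.3 CPM for Fto. Alkbh5 was high only in library B, at 226 CPM, the library with the lowest total used (1859784 counts). In library A it stood at 85.5 CPM, below the 88.1 CPM of library A of young Ythdf2 CTL mouse 4. Total counts of this mouse were 5617362, within the range of its group.

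In aged mice Ythdf2 CKO and Ythdf2 CTL HSCs were compared in the same way, and again 0 of 9 members passed, with 0 called by DESeq2, which called 54 genes higher and 50 lower (0.869%). In edgeR's quasi-likelihood fit 1 member had an unadjusted p below 0.05, as had 10.1% of all genes. By the quasi-likelihood test 0% of all 11961 genes tested were called. The median log2 fold change of the members was -0.07, against -0.00 over all genes tested. The groups of every member overlapped, and 3.49% of all genes had groups that did not. Leaving out mice 121 and 124 also gave 0 members called, with 25 genes higher and 15 lower (0.333%). The megakaryocyte and platelet markers summed to 336 to 519 CPM in aged Ythdf2 CTL and to 525 to 1959 CPM in aged Ythdf2 CKO mice, and their part was not tested.

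The member with the smallest p was the eraser Fto. It stood at 58.3, 81.8, 97.6 and 132 CPM in aged Ythdf2 CTL mice and at 121, 126, 134, 135 and 163 CPM in aged Ythdf2 CKO mice. All 5 Ythdf2 CKO mice were above the Ythdf2 CTL median and 3 were above the highest Ythdf2 CTL mouse, number 99. The log2 fold change was 0.56 (SE 0.23, adjusted p = 0.435), between 0.39 and 0.78 over 19 alternatives, with adjusted p between 0.0666 and 0.691. The smallest adjusted p came from the likelihood ratio test over libraries, which treats the 2 libraries of a mouse as independent. An exact two-sided permutation test over the mice gave p = 0.0476, 1 of 18 such tests over the members and both ages.

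Mettl3 ran the same way in aged mice. Its values were 32.6, 46.4, 48.7 and 57.0 CPM in Ythdf2 CTL mice and 53.7, 59.5, 61.5, 64.6 and 65.8 CPM in Ythdf2 CKO mice, of which 4 exceeded every Ythdf2 CTL mouse. The log2 fold change was 0.41 (SE 0.21, adjusted p = 0.526), and the exact permutation test gave p = 0.0317. Over 19 alternatives it lay between 0.26, in the likelihood ratio test over libraries, and 0.50, and it was 0.27 without Ythdf2 CTL mouse 99. Among the 18 exact tests no other member gave p below 0.05. Mettl14 had a log2 fold change of -0.03 (SE 0.28) with all mice and of 0.33 without mice 121 and 124. The ratio of Mettl3 to Mettl14 per kilobase had a median of 2.06 (range 1.42 to 3.17) in aged Ythdf2 CKO and of 1.66 (1.24 to 1.76) in aged Ythdf2 CTL mice, with overlap. The highest Ythdf2 CKO ratio belonged to mouse 121 and the lowest Ythdf2 CTL ratio to mouse 124, and without them the ranges were 1.42 to 2.19 and 1.62 to 1.76.

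Values for Zc3h13 and Cbll1 leaned the other way. Zc3h13 ranged from 44.7 to 90.8 CPM in aged Ythdf2 CTL and from 35.8 to 51.9 CPM in Ythdf2 CKO mice, with a log2 fold change of -0.43 (SE 0.24, adjusted p = 0.579). For Cbll1 these ranges were 58.5 to 106 and 44.3 to 81.1 CPM, with a log2 fold change of -0.38 (SE 0.23, adjusted p = 0.615). The highest value of both genes belonged to mouse 124, and without it the log2 fold changes were -0.21 for Zc3h13 and -0.26 for Cbll1, or -0.24 and -0.28 without mice 121 and 124. Wtap (-0.07, SE 0.31), Rbm15 (-0.17, SE 0.33), Rbm15b (-0.13, SE 0.43) and Alkbh5 (0.11, SE 0.26) had log2 fold changes below their standard errors. Without mice 121 and 124 the values were -0.27 for Wtap, -0.35 for Rbm15, -0.07 for Rbm15b and 0.07 for Alkbh5, and each of the 4 changed sign in some alternative.

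Whether the genotype effect differed between ages was tested directly over all 17 mice. By edgeR's quasi-likelihood test 0 of 9 members passed, 0 had an unadjusted p below 0.05 (4.76% of all genes had) and DESeq2 called 0, with 0% of 12352 genes called. The difference in log2 fold change, aged minus young, was 0.69 (SE 0.39) for Fto and 0.66 (SE 0.39) for Mettl3, each with an adjusted p of 0.999. Without young Ythdf2 CKO mouse 3 these were 0.42 and 0.40. It was -0.46 (SE 0.29) for Cbll1 and -0.46 (SE 0.33) for Zc3h13, the latter -0.22 without mouse 124. None of these differences passed.

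**Figure D2:**
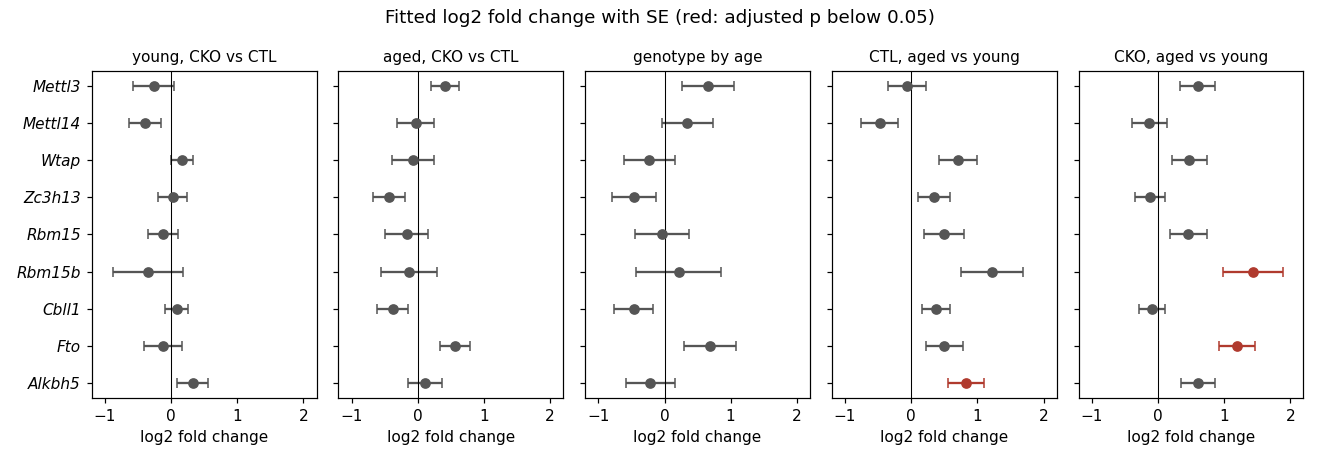
Fitted log2 fold change (horizontal axis) with its SE (whiskers) for the 9 members in the 5 contrasts, where red marks an adjusted p below 0.05. No member is red in the genotype contrasts or in their difference. Alkbh5 is red for age in Ythdf2 CTL, and Fto and Rbm15b are red for age in Ythdf2 CKO HSCs.

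Larger differences separated the aged from the young libraries. In Ythdf2 CTL HSCs Alkbh5 rose and the other 8 members did not pass, while in Ythdf2 CKO HSCs Fto and Rbm15b rose and 7 did not pass. No member fell, where 8.07% of all genes were called lower in Ythdf2 CTL and 9.34% in Ythdf2 CKO HSCs. For Ythdf2 CTL this was 1 of 9 members higher, beside 6.7% of 12352 genes called higher in aged mice, and for Ythdf2 CKO 2 of 9, beside 7.21%. The median log2 fold change of the members was 0.50 in Ythdf2 CTL and 0.47 in Ythdf2 CKO, against 0.11 and 0.07 over all genes tested, so all genes taken as a whole were shifted slightly upward. These contrasts compare the sample series as well as the ages, and counts at the margin of the threshold depended on single mice.

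Fto showed the clearest difference. In Ythdf2 CKO HSCs it rose from 59.9 ± 26.8 CPM (SD, n = 4) in young to 136 ± 16.1 CPM (SD, n = 5) in aged mice, and the 5 aged values of 121 to 163 CPM all exceeded the highest young value of 87.3 CPM. The log2 fold change was 1.19 (SE 0.27, adjusted p = 0.00568). It remained called in all 23 alternatives, at 0.92 to 1.43, the lowest without young Ythdf2 CKO mouse 3, with adjusted p between 3.1e-04 and 0.0211. In Ythdf2 CTL HSCs Fto went from 65.5 ± 6.86 to 92.5 ± 31.0 CPM, where 3 of 4 aged mice were above all young mice. That log2 fold change was 0.50 (SE 0.28, adjusted p = 0.240), or 0.28 without aged mouse 99, and the difference between genotypes did not pass, as given above.

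Alkbh5 in Ythdf2 CTL HSCs stood at 64.1 to 73.6 CPM in young and at 82.9, 96.1, 135 and 165 CPM in aged mice, with no overlap. The log2 fold change of 0.82 (SE 0.27) had an adjusted p of 0.0436, just below the threshold. The call was lost in 12 of 23 alternatives, in which the log2 fold change was 0.63 to 0.87. These left out mice 121 and 124 together, or 1 of the aged Ythdf2 CKO mice 122, 78 and 81, the aged Ythdf2 CTL mice 124 and 99, the young Ythdf2 CKO mice 2 and 4 or any of the 4 young Ythdf2 CTL mice. The adjusted p over all 23 alternatives was between 0.0228 and 0.144. In Ythdf2 CKO HSCs Alkbh5 stood at 71.4, 117, 144, 151 and 159 CPM in aged mice, and its log2 fold change of 0.61 (SE 0.26, adjusted p = 0.109) was called only without aged mouse 94 (0.76, adjusted p = 0.0425) or without young mouse 3 (0.88, adjusted p = 0.0331), with adjusted p up to 0.283 over the alternatives.

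Rbm15b, the low-abundance adaptor, stood at 2.75, 5.56, 6.29 and 8.76 CPM in young and at 7.54, 11.1, 16.0, 18.1 and 26.2 CPM in aged Ythdf2 CKO mice, so that 4 of 5 aged mice were above all young ones. The log2 fold change was 1.43 (SE 0.46, adjusted p = 0.0351). It was not called without aged Ythdf2 CKO mouse 122, 81 or 94 or without young Ythdf2 CKO mouse 1, 2 or 3, and lay between 1.18 and 1.70 over 23 alternatives, with adjusted p between 0.0117 and 0.118. In Ythdf2 CTL mice it stood at 4.17, 6.07, 8.79 and 10.9 CPM in young and at 13.5, 14.4, 16.9 and 24.9 CPM in aged mice. These groups did not overlap, but the log2 fold change of 1.22 (SE 0.47) had an adjusted p of 0.0841. Only 15 to 164 counts per mouse stand behind these values, and the 2 libraries of a mouse differed by a median of 0.926 on the log2 scale.

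Wtap in Ythdf2 CTL HSCs also showed no overlap, with 134.8 to 149 CPM in young and 153, 180.0, 235 and 347 CPM in aged mice. Its log2 fold change was 0.71 (SE 0.28, adjusted p = 0.0959), called only without aged mouse 65 (0.85, adjusted p = 0.0490). It was lowest, at 0.43 (adjusted p = 0.334), without aged mouse 99. In all, 3 of 9 members had non-overlapping, higher values in aged Ythdf2 CTL mice (Alkbh5, Wtap and Rbm15b), beside 6.9% of all genes. In Ythdf2 CKO mice 2 of 9 did so (Fto and Mettl3), beside 8.78%. Mettl3 there had a log2 fold change of 0.60 (SE 0.27, adjusted p = 0.139), or 0.33 without young mouse 3.

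Mettl14 alone of the writer genes had a negative log2 fold change with age in both genotypes, at -0.48 (SE 0.28, adjusted p = 0.259) in Ythdf2 CTL and -0.13 (SE 0.26, adjusted p = 0.782) in Ythdf2 CKO HSCs. Rbm15 had values of 0.50 (SE 0.30) and 0.46 (SE 0.29), which became 0.28 without aged mouse 99 and 0.21 without aged mouse 121. For Zc3h13 they were 0.34 (SE 0.24) and -0.12 (SE 0.23), and for Cbll1 0.37 (SE 0.21) and -0.09 (SE 0.20). In Ythdf2 CTL HSCs the value for Zc3h13 ran from 0.09 without aged mouse 124 to 0.47 without aged mouse 65, that for Cbll1 from 0.23 without aged mouse 124 to 0.51 without aged mouse 114, and that for Mettl14 from -0.75 to -0.30. In Ythdf2 CKO HSCs Mettl14 was at 0.01 without young mouse 4. None of these passed.

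Markers of other cells also differed between the young and aged libraries. The monocyte and macrophage markers, 5 of 5 detected in every group, summed to 751 to 817 CPM in young and 414 to 714 CPM in aged Ythdf2 CTL mice, and to 750.3 to 897 and 467 to 748 CPM in Ythdf2 CKO mice. Nearly all of this sum was Lyz2 (760 ± 35.3 CPM in young and 573 ± 145 CPM in aged Ythdf2 CTL mice), while Cd14 went from a mean of 0.672 to 3.84 CPM and C1qb from 11.0 to 14.3 CPM in Ythdf2 CTL mice. In Ythdf2 CKO mice Cd14 went from 1.26 to 2.97 CPM, C1qb from 9.91 to 1.28 CPM and C1qa from 3.22 to 0.576 CPM. Cd48 and Flt3, whose proteins HSCs lack, summed to 117 to 146 CPM in young and 13.7 to 53.3 CPM in aged Ythdf2 CKO mice, and to 84.3 to 117 and 20.8 to 119.5 CPM in Ythdf2 CTL mice. In Ythdf2 CTL mice Cd48 went from 68.2 ± 14.4 to 11.9 ± 13.3 CPM and Flt3 from 32.0 ± 2.96 to 46.6 ± 37.9 CPM. The Flt3 median was 31.8 CPM in young and 32.35 CPM in aged Ythdf2 CTL mice, and the highest aged mouse stood at 102.6 CPM. The megakaryocyte and platelet sums given above overlapped between ages in both genotypes, but Pf4 was lower in aged (178 to 284 CPM) than in young Ythdf2 CTL mice (296 to 635 CPM), and Gp9 was higher in aged (78.9 to 164.5 CPM) than in young Ythdf2 CKO mice. Of the B-cell markers, 3 of 5 in the table, the sum was 79.4 to 88.8 CPM in young and 32.9 to 75.0 CPM in aged Ythdf2 CTL mice, and 90.1 to 153 and 54.3 to 104 CPM in Ythdf2 CKO mice. Their part in the differences with age was not tested.

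Some members varied together between mice. Correlations of log2 CPM, centred within genotype, were computed for all 36 pairs at each age, 72 in total. In aged mice 3 pairs passed with adjusted p = 0.025 by an exact permutation test within genotype, and all 3 joined Wtap, Alkbh5 and Rbm15. For Wtap and Alkbh5 Pearson's r was 0.97 and Spearman's rho 0.97 (both p = 0.000347, the smallest the 2880 permutations can give, n = 9, exact test). For Wtap and Rbm15 r was 0.94 (p = 0.00104) and rho 0.95 (p = 0.000694, exact test), and for Rbm15 and Alkbh5 r was 0.92 (p = 0.00104) and rho 0.97 (p = 0.000694, exact test). Without the 2 mice farthest from the median r was 0.94, 0.90 and 0.94. Leaving out mice 121 and 124 left 7 mice and r of 0.99, 0.94 and 0.95, but the adjusted p of each was then 0.167 in an exact test with 144 permutations.

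In young mice no pair passed, the smallest adjusted p being 0.208 by the exact permutation test. Wtap and Alkbh5 had r = 0.97 (p = 0.0174) and rho = 0.79 (p = 0.123, exact test), with r = 0.72 without the 2 farthest mice and 0.87 without young Ythdf2 CKO mouse 3. Rbm15 and Alkbh5 had r = 0.39 (p = 0.321, exact test), which turned to -0.23 without that mouse. Without the 2 farthest mice r of this pair was 0.84. Wtap and Rbm15 had r = 0.56 (p = 0.0903, exact test), or 0.44 without the 2 farthest mice and 0.21 without young Ythdf2 CKO mouse 3. Mettl3 and Wtap had r = -0.85 in young mice (p = 0.0434, rho = -0.69 with p = 0.102, exact test, adjusted p = 0.347), and r = -0.57 without the 2 farthest mice. Zc3h13 and Rbm15 had r = 0.84 (p = 0.0226) and rho = 0.86 (p = 0.0191, exact test, adjusted p = 0.232), and r = 0.98 without the 2 farthest mice. Mettl14 and Fto had r = 0.74 (p = 0.0174) and rho = 0.69 (p = 0.059, exact test, adjusted p = 0.208), and r = 0.91 without them. Across all pairs the median r was 0.01 in young and 0.17 in aged mice.

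**Figure D3:**
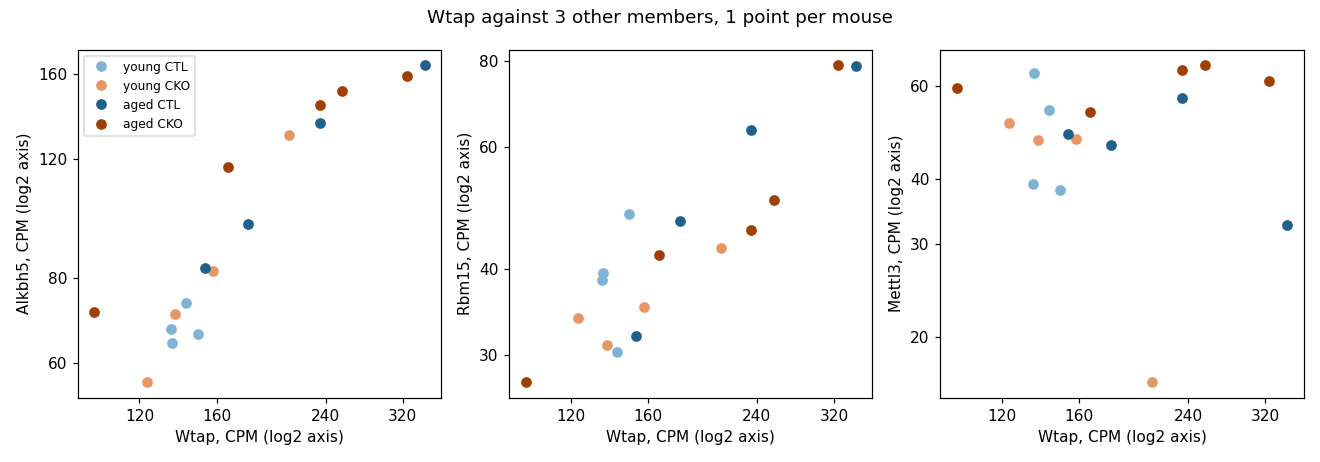
Levels of Alkbh5, Rbm15 and Mettl3 (vertical axes) against Wtap (horizontal axes), all in CPM on log2 axes, with 1 point per mouse coloured by group. Alkbh5 and Rbm15 rise with Wtap in the aged mice (r of 0.97 and 0.94), and 1 young Ythdf2 CKO mouse is far below the others in Mettl3.

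Differences between the 2 libraries of 1 mouse, which share genotype, age and animal, were compared in the same way for all 36 pairs of members. This comparison was added after the correlations between mice had been seen, and the result is a description of genes already picked for their pattern. Over 16 mice with 2 libraries, 3 of 36 pairs passed, again those of Wtap, Alkbh5 and Rbm15, and the median r of all 36 was 0.09. The difference between libraries A and B in log2(CPM + 1) of Wtap correlated with that of Alkbh5 at r = 0.90 (p = 2e-05) and rho = 0.75 (p = 0.0014, permutation test, adjusted p = 4e-04). For Wtap and Rbm15 r was 0.94 (p = 1e-05, the smallest that 100000 permutations can give) and rho 0.82 (p = 2e-04, permutation test, adjusted p = 4e-04), and for Rbm15 and Alkbh5 r was 0.86 (p = 5e-05) and rho 0.82 (p = 2e-04, permutation test, adjusted p = 6e-04). Without the 2 farthest mice r was 0.80, 0.88 and 0.88. Among 12351 genes, 8 were at least as close to Wtap as Alkbh5 was in this measure and 2 as close as Rbm15, each counted with itself. Between aged mice these numbers were 7 and 12.

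In aged Ythdf2 CTL mouse 124 Alkbh5 stood at 224 CPM in library A and 55.7 CPM in library B, and Wtap at 329 and 148 CPM. Fto went the other way in that mouse, at 40.1 and 117 CPM. Over all genes the 2 libraries of this mouse also stood apart, where the chi-square statistic over its degrees of freedom was 56.2, against 10.2 to 27.0 in the other 15 mice. Without mouse 124 the 3 within-mouse values of r were 0.87, 0.92 and 0.81.

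**Figure D4:**
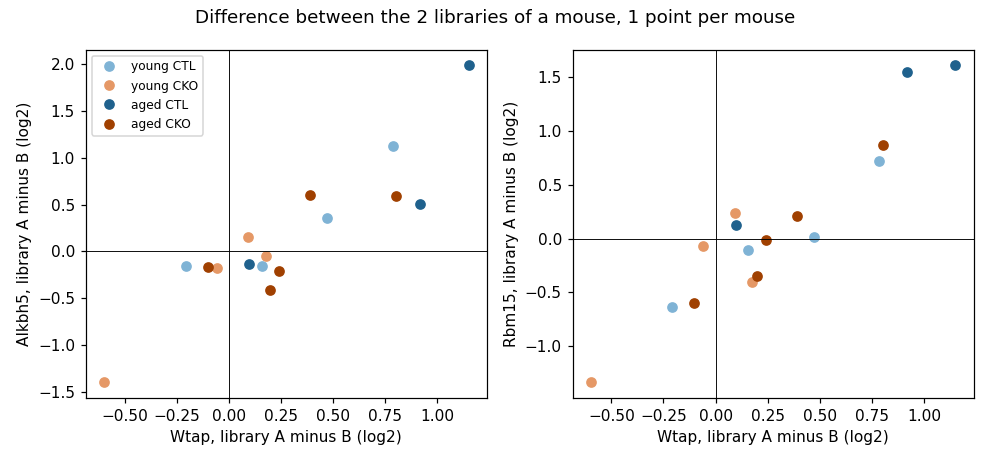
Difference between library A and library B of a mouse in log2(CPM + 1), for Alkbh5 and Rbm15 (vertical axes) against Wtap (horizontal axes), with 1 point for each of 16 mice. The points rise from lower left to upper right (r of 0.90 and 0.94), with aged Ythdf2 CTL mouse 124 at the upper right.

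The spread between mice of a group was below the median over all genes for every member except Rbm15b. The pooled SD of log2 CPM was 0.28 for Cbll1 and 0.30 for Zc3h13, the steadiest members, and 0.59 for Rbm15b, with 0.48 as the median over 12352 genes. Wtap, at 0.47, was close to that median although its level exceeded that of 90.2% of genes.

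Genes outside the list with the most similar pattern over the 17 mice, centred within each of the 4 groups, were Pgd (Pearson's r = 0.93) and Asna1 (0.90) for Mettl3, and Ralgapb (0.94) and Serbp1 (0.88) for Mettl14. For Wtap they were Slc39a1 (0.97) and Hsf2 (0.95), and for Alkbh5 Slc39a1 (0.95) and Acot2 (0.94). Rbm15 was most like Carmil1 (0.92) and Arglu1 (0.91), Rbm15b most like Mmab (0.80) and Kansl1l (0.78), and Fto most like Snx33 (0.93) and Rfwd3 (0.92). Ahctf1 (0.88) and Ppp2r3a (0.85) resembled Zc3h13, and Tubb5 (0.93) and Gatad1 (0.88) resembled Cbll1. These are the highest values among 12352 genes and are given as a description.

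The transcripts of the members were also scanned for GGACT, a sequence that the writer complex often methylates. On the sense strand of the longest coding transcript, Mettl3 had 1.98 GGACT per kb, Wtap 1.88 and Alkbh5 1.75, above 88.2%, 86.1% and 82.7% of 11830 genes, whose median was 1.04 per kb. Fto, with 0.425 per kb, and Rbm15, with 0.461 per kb, were near the lower end, above 14.1% and 15.7% of genes. A match says nothing of methylation in these cells.

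Other genes of the pathway gave the setting. Virma, the large writer subunit that guides methylation toward the end of transcripts, had a log2 fold change of 0.47 (SE 0.23, adjusted p = 0.715) in young and -0.28 (SE 0.25, adjusted p = 0.772) in aged Ythdf2 CKO against Ythdf2 CTL HSCs. No gene passed in a genotype contrast among 8 genes of other methyltransferases and their partners (Virma and Spen included), the readers apart from Ythdf2 (9 tested), 7 other AlkB genes and 4 genes of the methyl-donor cycle. The smallest p in aged mice belonged to the nuclear reader Ythdc1 (log2 fold change -0.87, SE 0.22, adjusted p = 0.297), the reader Prrc2a (-0.76, SE 0.26, adjusted p = 0.387) and Spen (-0.95, SE 0.35, adjusted p = 0.398), a relative of Rbm15. In young mice they were Virma, Ythdc2 (-0.74, SE 0.43, adjusted p = 0.808) and Trmt112 (-0.26, SE 0.15, adjusted p = 0.821).

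With age the whole-gene count of Ythdf2 itself rose in Ythdf2 CKO HSCs, by 0.83 on the log2 scale (SE 0.28, adjusted p = 0.0433), and all 5 aged mice were above the 4 young mice. This count does not tell transcripts with and without exon 2 apart. Without aged mouse 121, whose Ythdf2 level went against its label, the value was 0.46 (adjusted p = 0.175), and the call was lost in 10 of 23 alternatives. Without aged mice 121 and 124 together the value was 0.47 (adjusted p = 0.041), and the call was kept. In Ythdf2 CTL HSCs it was 0.36 (SE 0.29, adjusted p = 0.424). Prrc2a rose in Ythdf2 CTL (1.24, SE 0.26, adjusted p = 0.00465) and in Ythdf2 CKO HSCs (0.80, SE 0.25, adjusted p = 0.0331), and Spen rose in Ythdf2 CTL HSCs (1.24, SE 0.37, adjusted p = 0.0298). Mettl5, which methylates ribosomal RNA, fell in both, by 0.74 (adjusted p = 0.0134) and by 0.71 (adjusted p = 0.00929) on the log2 scale, and Hnrnpc, a splicing factor that binds near m6A, fell by 0.62 (adjusted p = 0.0491) and by 0.77 (adjusted p = 0.0107). Trmt112, the partner of Mettl5, fell by 0.63 in Ythdf2 CTL (adjusted p = 0.0207) and by 0.49 in Ythdf2 CKO HSCs (adjusted p = 0.0431). In Ythdf2 CKO HSCs the cap methyltransferase Pcif1 rose by 0.96 (adjusted p = 0.00569), Ahcyl1 rose by 0.59 (adjusted p = 0.0244), and Mettl16 fell by 0.59 (adjusted p = 0.0385). Of the 8 genes in the list of other methyltransferases and their partners, 1 rose (Spen) and 2 fell in Ythdf2 CTL, and 1 rose and 3 fell in Ythdf2 CKO HSCs. Of the 10 readers tested apart from Ythdf2, 1 rose and 1 fell in each genotype. Of the 4 methyl-donor genes 1 rose, in Ythdf2 CKO HSCs. Among all genes 6.7% were called higher and 8.07% lower in Ythdf2 CTL, and 7.21% and 9.34% in Ythdf2 CKO HSCs.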

How the data were processed

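The authors made SMART-Seq2 libraries from pools of HSCs, aligned reads with HISAT2 (build mm10, per the submitters' processing notes) and deposited raw counts per gene, made with Rsubread. The deposited counts have no molecular identifiers. Libraries of a mouse were summed, with 33 libraries of 17 mice used, and mice were the replicates. Totals per library ranged from 1859784 to 7784627 counts. Low genes were removed with filterByExpr (at least 10 counts, 15 in total), and TMM factors were applied. Testing used the quasi-likelihood F test of edgeR 4.0.16 (R 4.3.3), and p-values were adjusted over all genes tested after Benjamini and Hochberg, at 0.05. The genotype contrasts used separate fits for each age, and the other contrasts 1 fit of all mice. The SE was taken from each log2 fold change and its F. Log2 CPM used a prior count of 2. Exon length is the GENCODE union. Alternatives used DESeq2 1.42.0, limma 3.58.1, likelihood ratio tests, DESeq2 size factors, no filter, a Y-linked covariate, replicate blocks and left-out mice. The likelihood ratio test over libraries and the library-letter block took the 2 libraries of a mouse as independent.

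The tests were checked on simulated data. In the comparison of young genotypes, 79.6% of 98 genes changed by 2 on the log2 scale and 48.0% of 98 genes changed by 1 were recovered among 11304 genes. For the aged genotypes 78.8% of 99 and 27.0% of 100 were recovered among 11722 genes, and for age in Ythdf2 CKO 82.0% and 43.0% of 100 among 12174 genes. Unchanged genes called numbered 11, 5 and 11 in these 3 comparisons. The members and gene lists were chosen with earlier results of these data known. Named are all members, Ythdf2, pathway genes that passed a contrast (at most 6 each, by p, with Trmt112 in Ythdf2 CKO added after its value was seen) and the 3 with the smallest p in each genotype contrast, and the 2 most alike genes per member. Mice, ratios and library values were singled out after they were seen.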

Additional observations from a re-analysis of the deposited data

Results flagged for a closer look

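Mettl3 in young Ythdf2 CKO mouse 3 stood at 16.4 CPM, far from the next mouse of its group at 47.4 CPM and the highest at 51.0 CPM. The gap took up 0.895 of the range of the 4 mice. Of 36 member and group combinations examined in this way, 1 held a mouse so far from the rest, where chance flags about 1 in 20.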

How the results depend on the processing

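The young, aged and genotype-by-age counts of members called stayed at 0 in every alternative run. Of the age contrasts, the count in Ythdf2 CTL went from 1 to 0 without aged mice 121 and 124 and ranged from 0 to 2 when 1 mouse was left out, and the count in Ythdf2 CKO ranged from 1 to 2. Without aged mice 121 and 124 (added after seeing the data) 0 of the 3 aged pair correlations passed, with fewer mice and so fewer permutations. For the other changes the cause was not tested. Rbm15b rests on the fewest counts of the members, 15 to 164 per mouse.

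Some log2 fold changes, none of them called, changed sign. For genotype in young mice these were Zc3h13 with the Y-linked covariate (-0.03) and Rbm15b with limma (0.12, from -0.35). For genotype in aged mice they were Mettl14 without mice 121 and 124 (0.33), Wtap with the Y-linked covariate (0.02), limma (0.05) and the library letter as a replicate block (0.08), Rbm15 with limma (0.10) and that block (0.02), and Rbm15b with the likelihood ratio test over libraries (0.03). Mettl3 for age in Ythdf2 CTL became 0.03 with the Y-linked covariate.

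When 1 mouse was left out, genotype values in young mice spanned -0.39 to 0.00 for Mettl3, -0.01 to 0.27 for Wtap, -0.10 to 0.12 for Zc3h13 and -0.37 to 0.14 for Fto. In aged mice they spanned -0.20 to 0.21 for Mettl14, -0.27 to 0.20 for Wtap, -0.41 to 0.05 for Rbm15, -0.40 to 0.08 for Rbm15b and -0.04 to 0.30 for Alkbh5. The difference between ages spanned -0.43 to 0.04 for Wtap, -0.29 to 0.17 for Rbm15, -0.04 to 0.48 for Rbm15b and -0.37 to 0.07 for Alkbh5. Age values spanned -0.18 to 0.08 for Mettl3 in Ythdf2 CTL, and -0.28 to 0.01 for Mettl14 and -0.20 to 0.01 for Cbll1 in Ythdf2 CKO HSCs.

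Deviations of same-numbered young mice correlated at 0.087, -0.031, 0.004 and -0.059, and those of differently numbered mice at -0.206 to 0.172. The paper states that control mice were littermates, and these values cannot tell whether same-numbered mice were paired. The mouse number as a replicate block gave 0 members called, with 12 genes higher and 2 lower against 15 and 5 without it. The library letter as a replicate block also gave 0 members called at either age. Over all genes, the likelihood ratio test over libraries called 66 higher and 24 lower in young mice, and 136 higher and 284 lower in aged mice where the quasi-likelihood test called 0 (532 higher and 676 lower at an unadjusted level). That test over libraries treats the 2 libraries of a mouse as independent, so its p-values do not measure the spread between mice.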
